A study of Mus musculus with 16 samples.

Results

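Nuclear receptors are transcription factors that bind DNA through a pair of zinc fingers and, in most cases, change activity when a lipid-soluble ligand such as an oxysterol, bile acid, steroid or drug fits into a pocket at the other end of the protein. In hepatocytes they set the transcription of genes for sterol, bile acid, glucose and drug metabolism, and many of them bind as pairs with a retinoid X receptor on repeats of a short half-site. The contacts of the promoters of 10 such receptors were examined in mouse liver: Nr1h3 (LXRα, the oxysterol receptor), Nr1i2 (PXR) and Nr1i3 (CAR), which sense foreign compounds, Rxra (RXRα, the shared partner), Nr3c1 (the glucocorticoid receptor), Nr5a2 (LRH-1, a regulator of bile acid synthesis), Esrra (ERRα, a regulator of mitochondrial genes), Ppard and Pparg (fatty acid receptors) and Nr2f2 (COUP-TFII, an orphan receptor). A member's contacts were all fragment pairs with 1 end on the bait fragment that holds its annotated gene start, in GENCODE vM1 coordinates on the mm9 build. All 10 genes lay on a bait, out of 21768 annotated genes whose start did, and they accounted for 339 of the 247177 distinct fragment pairs of the series.

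The pairs came from promoter capture Hi-C, in which chromatin is cut with HindIII, ligated inside nuclei, and enriched with RNA baits for fragments that carry promoters. Livers were from wild type C57BL/6 male mice labelled as 8 weeks old, which the methods can be read to give as the age when housing began, fed ad libitum under a cycle with light for 12 h and darkness for 12 h, and were taken at lights on (ZT0), at lights off (ZT12) and midway through each phase (ZT6 and ZT18). The livers of a timepoint made up 3 pools, A to C, with 2 in each, pool A was sequenced on 2 lanes, and the 16 samples are represented by 1 list per timepoint that covers its pools. The lists held between 146262 (ZT0) and 154775 (ZT6) pairs, each with a score of at least 5, read here as the CHiCAGO score, a measure of how far the read pairs of 2 fragments exceed those of a distance and noise model. There was 1 score per pair and timepoint, so timepoints could not be compared by a test, the read depth behind a score is unknown, and a pair absent from a list had a score under the minimum rather than no contact. The totals of the lists stand in another order in the study's own summary of its libraries, so the assignment of the lists after ZT0 to hours is uncertain. The lists hold no expression values, so the liver label was not checked against marker genes.

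The bait decides how finely a promoter is seen, and here the baits ranged from 578 bp to 11.6 kb. The Nr5a2 bait was the shortest, chr1:138856563-138857140, and the Esrra bait the longest, chr19:6993914-7005516. HindIII cut 136 bases upstream of the Nr5a2 start and 234 bases upstream of the Nr1i3 start, so that for these receptors nearly all sequence upstream of the promoter fell on the neighbouring fragment. The 250 bases before each of these 2 starts are shown 5′ to 3′ along the gene, as read from the mm9 genome, with the HindIII site that bounds the bait in capitals. Nr5a2 is on the minus strand at chr1:138857005-138857254 and Nr1i3 on the plus strand at chr1:173143851-173144100.
Nr5a2: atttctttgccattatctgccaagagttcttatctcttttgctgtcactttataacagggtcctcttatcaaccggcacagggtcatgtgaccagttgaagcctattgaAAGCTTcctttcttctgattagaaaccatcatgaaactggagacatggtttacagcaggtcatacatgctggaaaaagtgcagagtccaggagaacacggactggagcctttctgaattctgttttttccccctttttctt
Nr1i3: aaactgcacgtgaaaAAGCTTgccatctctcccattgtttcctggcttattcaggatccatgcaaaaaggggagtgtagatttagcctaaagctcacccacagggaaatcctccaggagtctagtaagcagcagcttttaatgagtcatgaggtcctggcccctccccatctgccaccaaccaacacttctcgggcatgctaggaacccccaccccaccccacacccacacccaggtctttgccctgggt
A HindIII site within 250 bases before to 50 bases after the start occurred at 6.92% of 22375 protein-coding promoters. The same windows of Nr5a2 and Nr1i3 held 2 and 3 CpG dinucleotides, and those of Nr1i2 and Nr2f2 held 2 each. Pparg (40), Ppard (27), Esrra (25), Nr3c1 (20), Nr1h3 (18) and Rxra (17) lay above the median of all promoters, which was 11. The E-box CACGTG, a palindrome and the site of the clock's bHLH activators, was found in the windows of Nr1i3 and Nr3c1 and in 7.78% of all promoters. TCAAGGTCA, TAGGTCA and the AGGTCA repeats spaced by 1 base (DR1) or 4 bases (DR4), searched on both strands, matched in no member's window. They matched in 0.358%, 2.42%, 0.0581% and 0.00447% of all promoters.

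Receptor motifs were also searched in the fragments that the promoters contacted, and those of the strongest Nr5a2 and Rxra contacts are shown with a stretch of the Esrra bait. TCAAGGTCA is the extended half-site of LRH-1 and ERRα, TAGGTCA that of the ROR and REV-ERB receptors, and DR1 a site for RXR pairs; motif letters are in capitals. The strongest Nr5a2 contact, an intron fragment of Nr5a2 itself, held 2 TAGGTCA matches in opposite orientation 82 bases apart (plus strand, chr1:138793299-138793434). The strongest Rxra contact, in a stretch without annotated genes, held an E-box (plus strand, chr2:27408293-27408348). The Esrra bait itself held 2 TCAAGGTCA matches, and the one shown began 524 bases upstream of the Esrra start (minus strand, chr19:6996802-6996860). Not shown are 1 E-box of the Nr5a2 fragment, and 3 E-boxes and 4 TAGGTCA matches of the Esrra bait. The strongest Nr1h3 contact, itself a bait of 14922 bp, held 4 E-boxes, 2 TAGGTCA and 1 TCAAGGTCA match. The strongest Nr1i2 contact, a bait of 6464 bp, held none. CACGTG occurred in 29.2%, TAGGTCA in 25% and TCAAGGTCA in 8.38% of all contacted fragments that were no baits. The median length of those was 2245.5 bp, so these shares are no measure for the 2 longer baits.
Nr5a2 intron fragment: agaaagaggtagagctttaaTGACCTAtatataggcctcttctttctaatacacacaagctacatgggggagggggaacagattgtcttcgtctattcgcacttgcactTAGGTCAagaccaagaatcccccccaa
Rxra upstream fragment: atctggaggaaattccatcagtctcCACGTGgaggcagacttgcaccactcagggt
Esrra bait: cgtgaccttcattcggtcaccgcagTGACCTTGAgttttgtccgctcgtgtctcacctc
A match describes letters, not binding. Over the 286 contacted fragments that were no baits, TCAAGGTCA occurred 35 times, or 3.65 per 100 kb, against 2.98 per 100 kb over all 111722 contacted fragments that were no baits. The densities were 14.9 and 13.8 for CACGTG, and 10.1 and 10.5 for TAGGTCA. Of the 35 TCAAGGTCA matches, 16 lay in fragments of Nr1h3, which made up 224 of the 959 kb searched. The pooled density of TCAAGGTCA thus rests in large part on 1 member. DR1 occurred once and DR4 not at all in these 286 fragments, or 0.104 and 0 per 100 kb against 0.280 and 0.0604 over all, and counts this low say little about the members.

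The number of contacts differed widely between the receptors. Nr1h3 had 77 over the 4 lists together and Nr5a2 had 72, followed by Nr1i3 with 52 and Rxra with 46. Nr1i2 had 27, Pparg 21, Nr3c1 14, Esrra 12, Ppard 11 and Nr2f2 7. The median over all 18165 baits was 9, and 293 baits had more contacts than Nr1h3 while 10129 had more than Nr2f2. Shared bait fragments limit what can be assigned to a gene: the Nr1h3 bait also carries the starts of Acp2, Gm13783 and a U6 gene, the Nr1i3 bait that of Tomm40l, and the Esrra bait that of 1700019N12Rik. Contacts of annotated transcript starts off the baits are not described. Listed baits held 1 of 8 such starts for Nr1h3, 3 of 6 for Rxra and 4 of 6 for Ppard. They held 1 of 2 for each of Nr5a2, Pparg and Nr2f2, and all for the other members. Of 39 other nuclear receptor genes, 33 had a bait, with a median of 13 contacts and a range of 1 to 99 against a median of 24 and a range of 7 to 77 for the 10 members. The most contacts among those 33 belonged to Thrb (99), Nr3c2 (66) and Nr2c2 (56), while the starts of Hnf4g, Nr0b1, Pgr, Rora and Rorb, among others, lay on no bait of the lists.

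By timepoint, the 10 promoters together had 216 contacts in the ZT0 list, 224 in both the ZT6 and the ZT18 list, and 231 in that of ZT12. Here and below, values given as a row of 4 run from the ZT0 list to the ZT18 list. Nr1h3 had 60 contacts at ZT0 against 43, 41 and 40 in the later lists. Nr5a2 went the other way, with 37 at ZT0 against 56, 54 and 52. Nr1i3, with 40, 38, 41 and 39, and Rxra, with 33, 35, 38 and 38, were nearly level over the day. Nr1i2 had 15, 15, 22 and 18 contacts, Nr3c1 6, 7, 7 and 10, and Esrra 10, 8, 8 and 8. Ppard had 5, 4, 9 and 8 contacts, Pparg 8, 13, 11 and 9, and Nr2f2 2, 5, 0 and 2. Among the 9 members with at least 10 contacts, the highest number was at least 1.5 times the lowest in 5 (Nr1h3, Nr3c1, Nr5a2, Ppard and Pparg), beside 54% of the 8819 baits with as many contacts. At a score of at least 10, the timepoint with most contacts stayed at ZT0 for Nr1h3 but moved from ZT6 to ZT12 for Nr5a2.

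**Figure D1:**
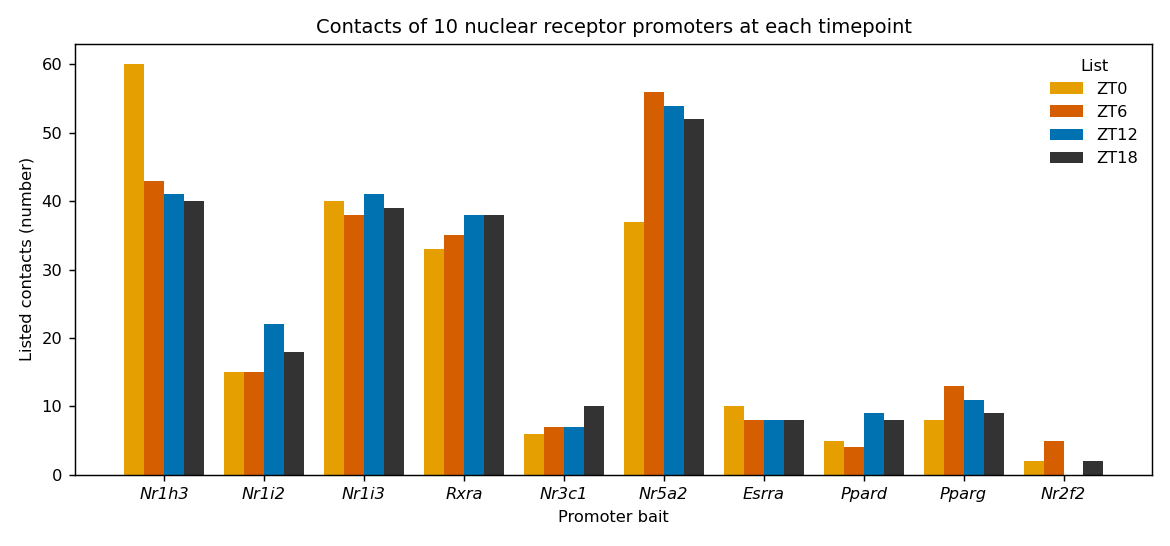
Number of listed contacts (y axis) of each receptor promoter (x axis), with 1 bar per timepoint list and no error bars because each list covers all pools of its timepoint. Nr1h3 stands highest at ZT0 with 60 contacts, Nr5a2 lowest at ZT0 with 37, and Nr2f2 had none at ZT12.

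Listing at every timepoint was more common for some receptors than for others. Of the 339 contacts, 134 were listed at all 4 timepoints, or 39.5% (95% Wilson interval 34.5 to 44.8%, counting error only), beside 32.5% of all pairs. For the 33 other nuclear receptors with a bait the share was 36.9% (226 of 612). Nr1i3 (32 of 52, 61.5%), Rxra (27 of 46, 58.7%) and Esrra (7 of 12, 58.3%) had the highest shares. Their intervals were 48.0 to 73.5%, 44.3 to 71.7% and 32.0 to 80.7%. Nr5a2 (28 of 72, 38.9%), Nr1h3 (24 of 77, 31.2%), Nr1i2 (8 of 27, 29.6%), Ppard (3 of 11, 27.3%) and Nr3c1 (3 of 14, 21.4%) followed. Pparg had 2 of 21 (9.52%, interval 2.65 to 28.9%) and Nr2f2 0 of 7, whose interval reached 35.4%. The fragments of a promoter share its bait and often adjoin each other, so these intervals treat as independent what is not. Where the contact of a different fragment within 10 kb was accepted, the share was 77%, beside 68.5% over the contacts of all baits, and it was 100% for Rxra (46 of 46) and 0 for Nr2f2. Of the 96 member contacts that reached a score of 10 at a timepoint, 91 were listed at all 4 (94.8%), beside 89.7% of all such pairs.

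**Figure D2:**
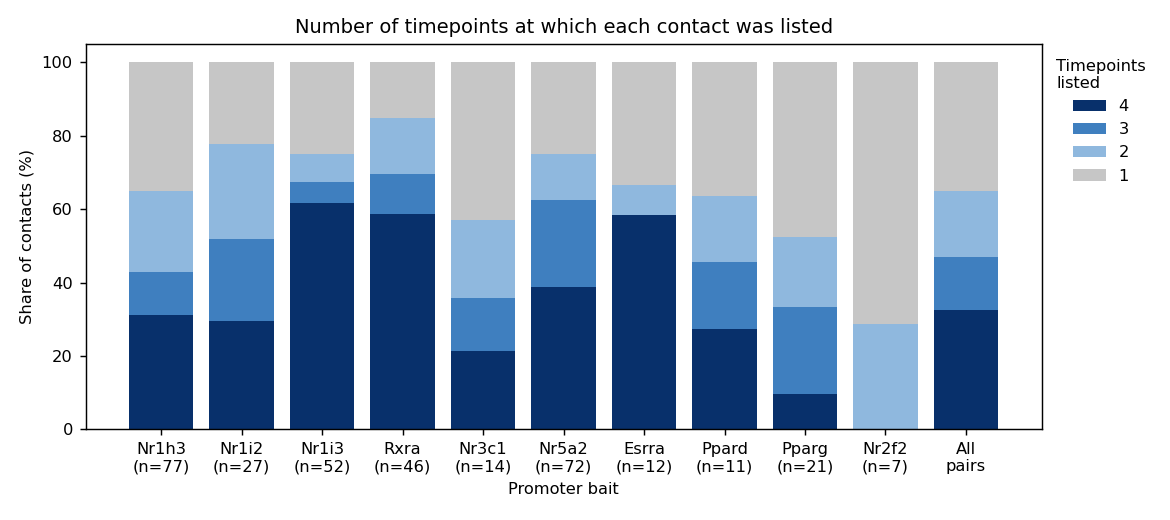
Share of each promoter's contacts (y axis, percent) that were listed at 4, 3, 2 or 1 of the timepoints, with the number of contacts under each name and all pairs of the series at the right. Nr1i3, Rxra and Esrra have the tallest dark parts, at 61.5%, 58.7% and 58.3%, and Nr2f2 has none.

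The scores of contacts listed at all 4 timepoints peaked at different hours for different receptors. Over all such pairs of the series, the highest score belonged to the ZT0 list in 22.2%, to ZT6 in 26.2%, to ZT12 in 25.6% and to ZT18 in 26%. For Nr1h3 it fell at ZT0 in 15 of 24 (62.5%, interval 42.7 to 78.8%), and for Nr5a2 at ZT0 in 0 of 28, whose interval reached 12.1%. For Nr1i3 it fell at ZT12 in 18 of 32 (56.3%, interval 39.3 to 71.8%), and for Rxra at ZT18 in 15 of 27 (55.6%, interval 37.3 to 72.4%). The timepoint named was the most frequent of the 4 for Nr1h3, Nr1i3 and Rxra, and the least frequent for Nr5a2. The intervals do not allow for this choice, so they only describe these counts. The score differences behind these counts were mostly small: the highest score was at least 2 times the lowest in 9 of the 134 (6.72%), beside 6.63% of all pairs listed at every timepoint. The median score moved from 11.4 at ZT0 to 8.83 at ZT6 for Nr1h3, and from 8.71 at ZT0 to 11.8 at ZT18 for Rxra. Over all pairs the medians lay between 8.75 (ZT0) and 8.98 (ZT12 and ZT18). Without replicate lists, the spread of a score between pools is unknown, and the fragments of one promoter share its bait.

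The contacts reached a median of 118 kb between fragment midpoints (95% interval of the median from order statistics, 105 to 131 kb), beside 162 kb for all pairs on one chromosome. None joined different chromosomes, and 2 of 339 spanned more than 1000 kb. A bait stood at both ends in 53 (15.6%), beside 15.4% of all pairs with each pair counted once. Counted from the bait, as for the members, 209119 of 285235 contacts over all baits ended on a fragment that was no bait. Among the members 286 of 339 did, so on this footing a bait at both ends was less common among them. In 105 (31.0%) the contacted fragment had no other contact in any list, beside 23.4% over all baits. Rxra alone supplied 40 of the 105, so this pooled share rests in large part on 1 member. No fragment was contacted by 2 of the 10 receptors, which their positions fixed in advance. Their starts lie on different chromosomes or, for Rxra with Nr1h3 and Nr5a2 with Nr1i3, farther apart than any contact reached. Among the 286 contacted fragments that were no baits, 101 overlapped an exon (35.3%), 77 only introns (26.9%), 103 no gene (36.0%) and 5 a gene start outside the bait set (1.75%), and over all baits the shares were 33%, 28.8%, 36.1% and 2.05%.

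**Figure D3:**
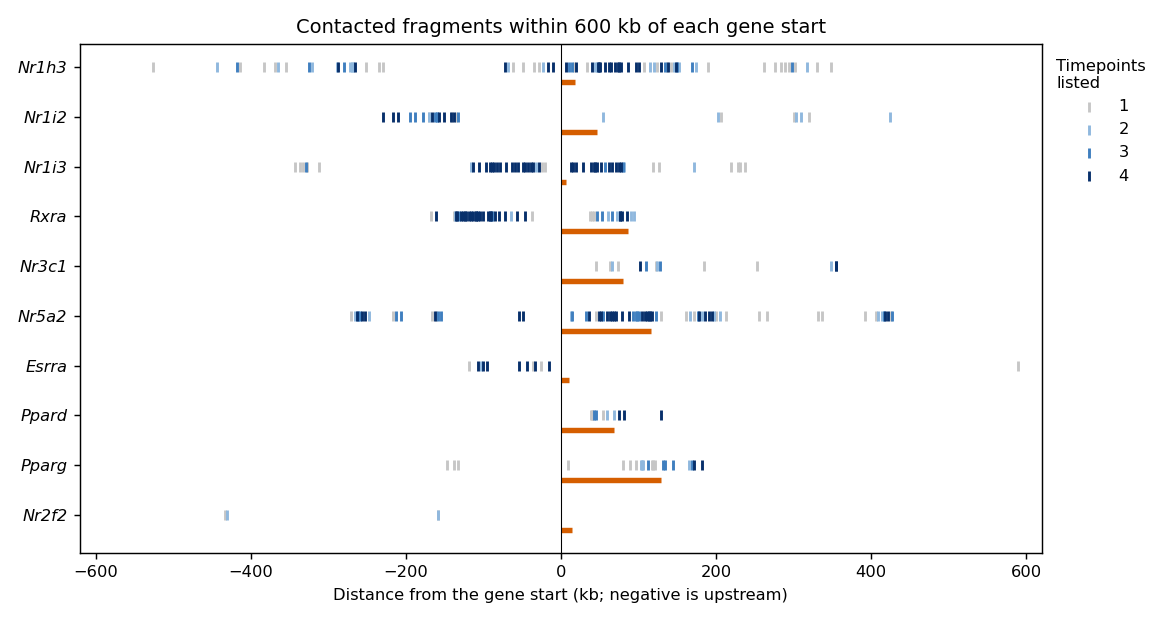
Contacted fragments of each promoter by distance from its gene start (x axis, kb, negative upstream), with darker ticks for fragments listed at more timepoints and an orange bar for the gene. Rxra contacts lie mostly upstream, Ppard and Nr3c1 contacts all lie downstream, and 4 contacts beyond 600 kb (3 of Nr2f2 and 1 of Nr5a2) are outside the plot.

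The Nr1h3 promoter (gene start at position 91042991 of chromosome 2, minus strand, bait chr2:91039126-91048036) contacted a gene-dense stretch: 25 protein-coding genes started within 500 kb, and 72 of its 77 contacts touched an annotated gene. Its strongest contact was the fragment with the start of Mybpc3, which encodes cardiac myosin-binding protein C, 86.7 kb downstream (an exon of Sfpi1, the gene of the myeloid factor PU.1, lies on it too). That contact scored 23.1, 16.7, 17.4 and 13.1. The fragments of Madd, the gene that follows Nr1h3, scored higher at ZT0 than at ZT6 wherever they were listed at both: the intron fragment 49.4 kb downstream scored 16.4, 9.49, 12.3 and 11.9. Further promoters were Slc39a13, a zinc transporter gene, 129 kb downstream (11.8, 11.7, 9.97 and 12.6), and the Madd start at the 3′ end of Nr1h3, 19.9 kb away (7.61, 6.48, 8.57 and 10.1), and neither was highest at ZT0. The largest relative difference was in a fragment of 154 bp inside Nr1h3, 6.6 kb from the start, which scored 14.4, 6.39, 9.31 and 8.48, a ratio of 2.25. Upstream of the start, all 5 contacts listed at every timepoint scored highest at ZT0. Of the 27 contacts listed at 1 timepoint, 14 were listed at ZT0. All but 1 of the contacted fragments had another contact, and the bait of Pacsin3 and Gm17281 shared 51 of them, which is 66.2% of the Nr1h3 set and 53.7% of the 95 contacts of that bait.

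**Figure D4:**
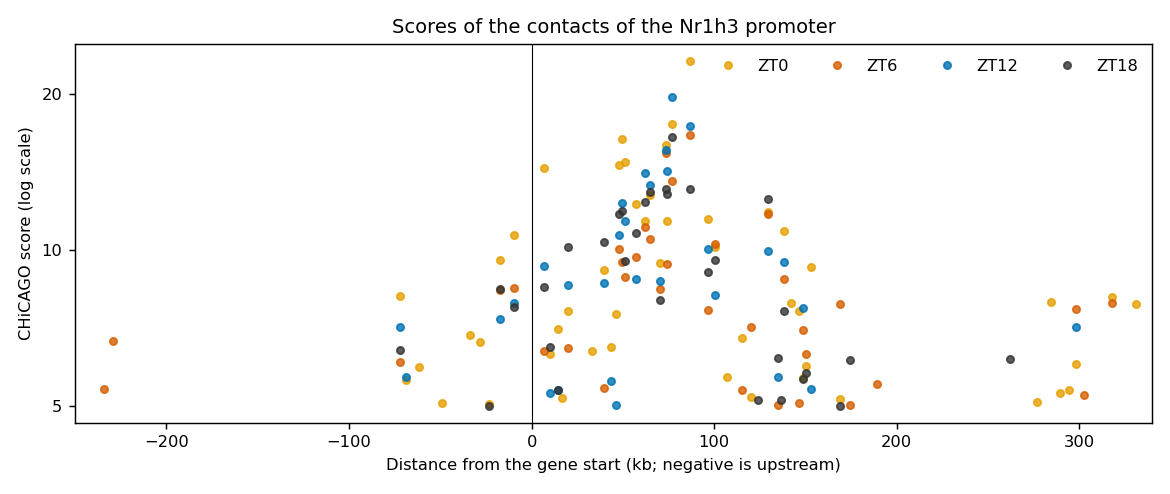
CHiCAGO score (y axis, log scale) of each contact of the Nr1h3 promoter against distance from the gene start (x axis, kb, negative upstream), 1 point per timepoint at which it was listed; contacts outside the plotted range are not shown. The points of ZT0 lie mostly on top, with 23.1 for the Mybpc3 fragment 86.7 kb downstream.

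CAR and PXR, the xenobiotic receptors, had baits of different surroundings. The Nr1i3 bait (gene start at position 173144101 of chromosome 1, plus strand, bait chr1:173143867-173153998) had 39 protein-coding starts within 500 kb. The intron fragment of 1700009P17Rik 96.5 kb upstream scored 32.4, 30.7, 35.6 and 36.1, and a fragment in no gene 49.4 kb upstream scored 35.8, 33.3, 33.1 and 32.9. Their ratios of highest to lowest score were 1.18 and 1.09. Downstream, the fragment with the start of Fcer1g, an Fc receptor chain gene, 19.2 kb away, scored 29.6, 24.7, 26.6 and 26.5, and the one with the start of Adamts4, a metalloproteinase gene, 38.7 kb away, scored 24.7, 23.1, 26.8 and 24.5. The contact with Apoa2, an apolipoprotein gene of high-density lipoprotein, scored 11.4, 11.1, 12.3 and 13.0, 12.7 kb downstream. Downstream of the bait, 17 adjoining fragments over 71.0 kb were contacted, 14 of them at all timepoints. The bait of 1700009P17Rik, itself in contact with Nr1i3 (22.2, 24.7, 26.4 and 26.3), shared 40 fragments, 76.9% of the Nr1i3 set and 74.1% of its own 54.

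The Nr1i2 promoter (position 38294910 of chromosome 16, minus strand, bait chr16:38291320-38295374) contacted no fragment of its own gene, and its nearest contact was 54.9 kb away. All 8 contacts listed at every timepoint lay upstream, between 138 and 229 kb. The strongest, with the start of 4930455C21Rik and an exon of Poglut1, a glycosyltransferase gene, scored 14.5, 23.6, 7.60 and 12.5. This contact was highest at ZT6 and lowest at ZT12, with a ratio of 3.10, and neither fragment beside it was listed. The start of Adprh, an ADP-ribose hydrolase gene, 157 kb upstream, ran otherwise, with 8.08, 9.50, 11.2 and 11.5. Of the 8, 5 were highest at ZT18. Gsk3b, a kinase gene, was contacted 203 kb downstream at ZT6 (6.51) and ZT18 (5.24). The bait of 4932425I24Rik shared 22 of the fragments, 81.5% of the Nr1i2 set and 39.3% of its own 56.

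Rxra, the shared partner, mostly contacted fragments that had no other contact. Of its 46 contacts, 40 (87.0%) were of this kind, beside 23.4% over all baits, and 2 had a bait at both ends. Other members had high shares too: 100% for Nr2f2, 78.6% for Nr3c1, 63.6% for Ppard and 47.6% for Pparg. The share was 36.1% for Nr5a2, 7.41% for Nr1i2 and 0 for Esrra, with 1 of 77 for Nr1h3 and 1 of 52 for Nr1i3. Upstream of the start (position 27531960 of chromosome 2, plus strand, bait chr2:27530956-27534306), 30 adjoining fragments over 105 kb were contacted, from 37.6 to 138 kb away. No other bait contacted any of the 30, 27 of them touched no annotated gene, and 22 were listed at all timepoints. The peak of this stretch was 124 kb upstream, at chr2:27407280-27408566, with scores of 15.7, 24.5, 24.1 and 32.3. The next fragment, 122 kb upstream, was also highest at ZT18, with 16.3, 18.3, 23.8 and 26, and a fragment 112.9 kb upstream was highest at ZT0, with 19.2, 12.2, 14.3 and 18.2. In the stretch, 11 of the 22 were highest at ZT18 and 6 at ZT12. A second group lay in the 3′ part of Rxra itself, where the fragment 75.7 kb downstream scored 8.40, 12.5, 10.3 and 15.1. Of the 4 contacts within Rxra listed at every timepoint, 3 were highest at ZT18 and 1 at ZT6. The largest ratio was 2.11, 108.8 kb upstream (5.92, 12.5, 10.4 and 10.1). The baits contacted were those of Wdr5, which encodes a histone methyltransferase subunit (161 kb upstream, 7.47, 7.30, 8.27 and 8.42), and Brd3, a bromodomain gene, listed at ZT0 with 5.12. The starts of Gm13421 (135.8 kb upstream, 13.2, 12.8, 12.6 and 9.41) and of a U6atac gene, listed at ZT6 and ZT18, lay on contacted fragments that were no baits.

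Nr5a2 (position 138857004 of chromosome 1, minus strand) had 3 protein-coding starts within 500 kb, and its contacts fell into its own gene, a flank on each side and a far group. Of 72 contacts, 25 lay in Nr5a2, 19 upstream and 28 downstream of the gene, and 41 touched no annotated gene. The strongest, the intron fragment whose TAGGTCA matches are shown above, lay 63.7 kb into the gene and scored 15.6, 22.0, 27.3 and 18.3. Another intron fragment, 49.2 kb in, scored 13.9, 14.2, 17.8 and 15.0. The fragment 418.6 kb downstream, in no gene, scored 14.6, 14.7, 18.5 and 12.1, below the strongest fragment in every list. All 3 were highest at ZT12. The fragment 262.6 kb upstream was instead highest at ZT6, with 7.45, 15.3, 6.73 and 9.16, a ratio of 2.28. Within the gene 18 contacts were listed at ZT0 and 24, 23 and 23 at the later timepoints, and downstream of the gene 10 at ZT0 and 18, 17 and 15 later. Both groups were thus lower in number at ZT0, and upstream the numbers were 9, 14, 14 and 14. Of the contacted promoters, AC125186.2, a gene 206 kb downstream, reached 10.95 at ZT12 and 8.20 at ZT6. The Nek7 promoter, of a mitotic kinase gene, was listed at ZT12 alone, with 5.05, 1659 kb upstream. The bait of AC125186.2 shared 27 fragments, 37.5% of the Nr5a2 set and 41.5% of its own 65.

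**Figure D5:**
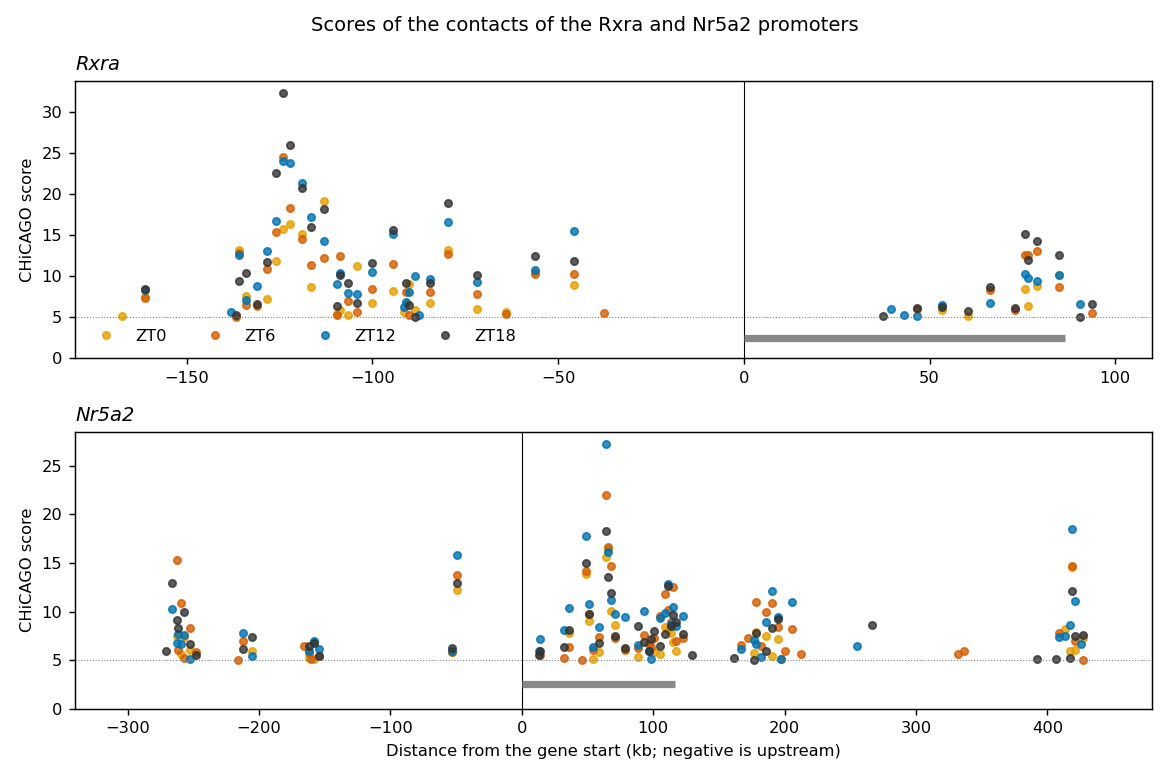
CHiCAGO score (y axis) of each contact of the Rxra and Nr5a2 promoters against distance from the gene start (x axis, kb, negative upstream), 1 point per timepoint at which it was listed, with the gene as a grey bar and the score minimum dotted. The Rxra scores peak at 32.3 at ZT18, 124 kb upstream, and the Nr5a2 scores at 27.3 at ZT12, 63.7 kb into the gene.

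The glucocorticoid receptor promoter Nr3c1 had 14 contacts, all downstream of the start on chromosome 18, 4 of them in its own gene. Its strongest, with the start of Gm15337, 102 kb away, scored 7.16, 8.41, 13.6 and 12.3, a ratio of 1.90. The other 2 contacts listed at every timepoint were adjoining intron fragments of Arhgap26, which encodes a GTPase-activating protein, 354.6 and 355.1 kb away. The first scored 9.01, 7.70, 7.01 and 11.8 and the second 5.06, 5.09, 8.44 and 5.88, so that neighbours peaked at different hours. Of the 14 fragments, 11 had no other contact.

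Esrra had 12 contacts, 11 of them upstream in a row of genes and 1 on the other side, 590 kb away. Its strongest, with the start of Kcnk4, a potassium channel gene, 14.7 kb upstream, scored 11.8, 11.7, 10.9 and 11.6, with a ratio of 1.09, the lowest among the strongest contacts of the 9 members other than Nr2f2. The contact with the start of Ppp1r14b, a phosphatase inhibitor gene, 53.8 kb upstream, scored 8.11, 8.19, 7.08 and 8.61. The largest ratio, 1.46, was in Stip1, which encodes a co-chaperone of heat shock proteins (8.51, 5.83, 6.91 and 6.04). All 12 fragments had another contact, and the Fermt3 bait shared 7, which is 58.3% of the Esrra set and 31.8% of its own 22.

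The fatty acid receptors Ppard and Pparg had contacts that lay mainly inside and beyond the 3′ end of the gene. All 11 contacts of Ppard were downstream, 8 of them in Ppard, of which none was listed at all timepoints, while the 3 past the gene were all listed at every timepoint. These were a fragment without a gene 75.1 kb away (9.86, 10.6, 9.45 and 8.17), Fance, a Fanconi anaemia gene, at 80.9 kb (6.15, 6.25, 8.12 and 7.67), and Tulp1, a photoreceptor gene, at 129 kb (6.31, 6.98, 7.91 and 9.07). The first was highest at ZT6, Fance at ZT12 and Tulp1 at ZT18. The Def6 bait shared 4 of the 11 fragments (36.4%) and had 8 of its own. For Pparg, 18 of 21 contacts were downstream and 11 lay in Pparg, where 1 was listed at ZT0 and 6, 5 and 4 at the later timepoints. Of its contacts listed at all timepoints, the fragment 171.6 kb away, in no gene, scored 7, 11.5, 8.26 and 7.28, highest at ZT6. The Timp4 bait shared 6 fragments, 28.6% of the Pparg set and 54.5% of its own 11. The bait covers the first annotated start of Pparg, and no listed bait held the other, so contacts of the second promoter are not described.

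Nr2f2 had the fewest contacts. Its 7 fragments touched no gene, had no other contact and lay 158 to 1053 kb from the start. All but the farthest adjoined another of the 7, and 2 protein-coding genes started within 500 kb. The nearest scored 6.72 at ZT6 and 5.05 at ZT18, and the one 430.6 kb upstream 5.66 at ZT0 and 6.52 at ZT6. The other 5 were listed once, none was listed at ZT12, and the highest score was 6.72.

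The receptors were also looked up against partners and targets. None of 10 coregulator genes, all of which had a bait, was contacted by a member, nor was any of 28 target genes with a bait out of 30 looked up, such as Abca1 (LXR) and Cyp7a1 (LRH-1); the starts of Cyp3a11 and Cyp2c29 lay on no bait. No member contacted the bait of another nuclear receptor among the 43 of 49 that had one. Since the contacts of the members lay on their own chromosomes, targets on other chromosomes had no listed pair to be found. Only 2 of 339 contacts spanned more than 1000 kb, so distant genes on the same chromosome had little room to be found either. How often other gene sets are contacted was not counted, so these absences say nothing particular about receptors.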

How the data were processed

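Promoter capture Hi-C of mouse liver was deposited as 1 list per timepoint, with pairs of fragments on mm9 (per the labels). The authors processed reads with HiCUP and called interactions with CHiCAGO. How the pools were combined and the tool versions are not given in the sources used here. The third deposited column is read as the CHiCAGO score because no value is under 5. The deposited score is the only value per pair, with no read counts, so precision could not be computed from depth. A check of 129886 listed fragments on the mm9 genome found HindIII sites at both ends of 129885. Pairs were joined by fragment coordinates, baits were matched to GENCODE vM1 gene starts, and upstream and downstream follow the strand. Shares carry 95% Wilson intervals. Calculations used Python 3.11.15, pandas and scipy, and the counting steps were tested on simulated lists. Members and gene lists were chosen with earlier results of these data known. The genes named are, for each member, the strongest contact, the promoters contacted with a score of at least 10 (at most 4), the contact of largest score ratio and the bait sharing most fragments (at least 3). Some contacts that this rule names are not reported here. Other contacts named were chosen after their values were seen. Alternatives were a score minimum of 7 or 10, any transcript start, the nearest bait within 5 kb, equal list lengths (146262 pairs), a tolerance of 10 kb, and division by list totals.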

Additional observations from a re-analysis of the deposited data

How the results depend on the processing

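No paired analysis was possible because 1 list stands for all pools of a timepoint, and for the same reason no pool could be left out. At a score of at least 7 the 10 promoters had 183 contacts in all and 114, 123, 143 and 124 in the lists in order of time, and at a score of at least 10 they had 96 in all and 60, 65, 71 and 69; fewer pairs pass a higher minimum by construction. Equal list lengths kept these totals within 1.5 times. Any transcript start and the nearest bait within 5 kb left them unchanged and are no test of them. All 10 gene starts already lay on a bait, and other transcript starts added no contact. The timepoint with most contacts was kept by 9 of 10 members after division by list totals, by 9 with equal list lengths, by 6 at a score of at least 7 and by 6 at a score of at least 10; the last 3 were chosen after seeing the data. A tie that includes the timepoint counts as keeping it. If the lists labelled ZT6, ZT12 and ZT18 belong to ZT18, ZT6 and ZT12, the order of totals in the study's summary, 3 members keep it. That count was fixed in advance, because every list but that of ZT0 moves. Nr1h3 and Esrra have most contacts at ZT0, and the tie of Rxra at ZT12 and ZT18 becomes a tie at ZT6 and ZT12. The share listed at all 4 timepoints was 44.8% at a score of at least 7, 40.6% at 10 and 39.9% with equal list lengths, and 77% with another end within 10 kb accepted. The median distance was 79.2 kb at a score of at least 10, and the share of fragments with no other contact was 42.7%. Values over all pairs at the higher score minimums and with equal list lengths are not given beside these. The shifts therefore say nothing particular about the members. The cause of these shifts was not tested. The read depth behind each score, pool spread and contacts under the score minimum are unknown, and scores of neighbouring fragments are not independent.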
